A study of Bos taurus with 24 samples.

Results

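Importins carry proteins into the nucleus, and the genes described here are those for the importin alphas KPNA7, KPNA1, KPNA2, KPNA3, KPNA4 and KPNA6, for importin beta (KPNB1), for the small GTPase RAN and its exchange factor RCC1, and for the exportin XPO1. The members were chosen by name, as every row of the deposited expression table whose symbol equals 1 of these 10 names. All 10 were found, in 11 of the 17071 rows, because the symbol RAN stood on 2 gene identifiers. The RNA came from single bovine oocytes at metaphase II (MII), 12 injected and 12 non-injected. Injected oocytes, whose genotype label reads scrambled siRNA injected, had received a non-specific siRNA together with fluorescent dextran at the germinal vesicle stage. Non-injected oocytes were labelled wild type. Both groups were denuded, held for 16 h in roscovitine, an inhibitor of cyclin-dependent kinases that delays meiotic resumption, and then kept for 22 h in maturation medium. No group injected without siRNA was analysed here, so the puncture, the dextran and the siRNA cannot be told apart. The ovaries came from a slaughterhouse, and the sources used here give neither the age of the animals nor which oocytes shared an animal. The p-values therefore cover only the variation among these oocytes.

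In the classical import cycle an importin alpha binds the localization signal of a cargo and is itself bound by importin beta, which passes through the nuclear pore. RAN bound to GTP, made at chromatin by RCC1, takes the complex apart in the nucleus, and the exportin CSE1L returns the importin alpha to the cytoplasm. In an MII oocyte there is no nuclear envelope, and the same proteins act at the spindle: importins hold assembly factors such as TPX2 inactive, and RAN bound to GTP near the chromosomes releases them. KPNA7 is the importin alpha of oocytes and early embryos in cattle and other mammals.

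Expression was measured by CEL-seq2, in which each captured RNA molecule is counted once near its 3′ end with a unique molecular identifier (UMI). Values were therefore not divided by gene length, and levels of different genes are compared per captured molecule. Whether different genes were captured and mapped to the cDNA library equally well was not tested, which limits every comparison between genes. The values are reads per 1000000 (RPM), a share of the captured RNA of an oocyte, and higher or lower refers to that share. Each non-injected oocyte held 134080 to 415554 UMIs and each injected oocyte 204285 to 382077, with means of 285785 ± 88946 and 278213 ± 59160 (SD, n = 12 each, two-sided permutation test, p = 0.806). 1 UMI was worth 2.27 to 7.35 RPM, and 0 UMIs in an oocyte allow a level of up to 6.81 to 22.1 RPM (3 counts, counting error only). The oocyte label was checked against 10 oocyte markers, those found of 12 listed, whose summed level was 5303 to 7377 RPM in non-injected and 5682 to 8207 RPM in injected oocytes. The 11 cumulus and granulosa markers found, of 15, summed to 148 to 229 and 150 to 253 RPM. HAS2, with a mean of 86.4 RPM, gave the largest part of this. INHBA (39.9 RPM) and PTGS2 (25.5 RPM) were also above 0 in all 24 oocytes, CYP19A1 (15.8 RPM) in 23 and CD44 (10.2 RPM) in 22. PTX3 and VCAN had means of 2.01 and 4.08 RPM, FSHR, AMH and COL1A1 had group means of 0 to 0.55 RPM, and LUM was at 0 in all 24 oocytes. The part of RNA from cumulus cells in the members' levels was not tested. Injected oocytes 8 and 3 were the least like the others, though without a clear gap to the next. Over the 7256 tested genes their mean Spearman correlations with the other oocytes were 0.832 and 0.840, the lowest of the 24, with non-injected oocyte 11 next at 0.849. Values that these 2 oocytes moved most are also given without them.

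KPNA7 (ENSBTAG00000015737) was by far the most abundant member. Its level ranged from 2270 to 5433 RPM over the 24 oocytes, with a mean of 4015 RPM, and this mean was the 17th highest of the table. In single non-injected oocytes its rank lay between 5 and 17, and in injected oocytes between 15 and 28. ZP2, a zona pellucida glycoprotein gene and the highest of the oocyte markers, had means of 1839 RPM in non-injected and 1918 RPM in injected oocytes.

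KPNA2 (ENSBTAG00000012225), the importin alpha of dividing somatic cells and a carrier of TPX2, came next with a mean of 371 RPM over the 24 oocytes. XPO1 (ENSBTAG00000013254), which exports proteins that carry a leucine-rich export signal, followed at 112 RPM. KPNA6 (ENSBTAG00000002896), an importin alpha that in mice is needed from the egg for early cleavage, had a mean of 36.7 RPM. The importin beta that binds these adaptors, KPNB1 (ENSBTAG00000006586), had a mean of 24.3 RPM and KPNA1 (ENSBTAG00000011143), a widely expressed importin alpha, one of 19.6 RPM. Each of these 6 genes was detected in all 24 oocytes.

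**Figure D1:**
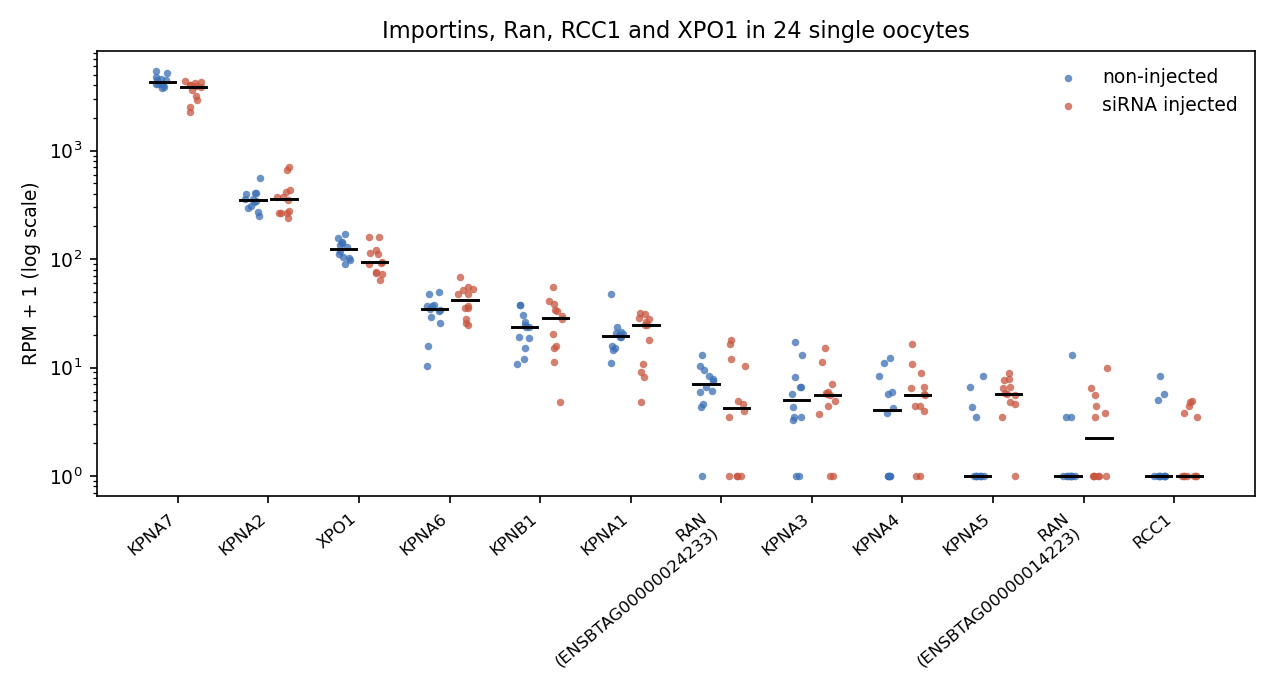
Level of each member, and of KPNA5 for comparison, in the 24 oocytes. Each point is 1 oocyte (RPM + 1, log scale), and black bars are the medians of the 12 non-injected and the 12 siRNA injected oocytes. KPNA7 lies between 2270 and 5433 RPM, and the genes to the right of KPNA1 fall to 0 in some oocytes.

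The remaining 5 rows lay close to the limit of detection. KPNA3 (ENSBTAG00000004850) and KPNA4 (ENSBTAG00000017416), a closely related pair of importin alphas, had mean levels of 5.07 and 4.48 RPM. KPNA3 was above 0 in 10 non-injected and 10 injected oocytes, with 19 and 18 UMIs in all. KPNA4 was above 0 in 7 non-injected and 10 injected oocytes, with 13 and 19 UMIs. The RAN row ENSBTAG00000024233 had 22 UMIs over 11 non-injected oocytes and 19 over 8 injected oocytes, and the row ENSBTAG00000014223 had 4 UMIs over 3 and 9 UMIs over 6. RCC1 (ENSBTAG00000003788) had 3 UMIs over 3 non-injected and 5 over 5 injected oocytes. The sources used here do not say how reads that match both RAN rows or other near-identical copies were assigned, which leaves the levels of RAN uncertain, and whether reads were lost that way was not tested.

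The order of the rows by mean level was compared between neighbours within oocytes, on log2(RPM + 5), with 100000 sign-flip permutations for each of the 10 pairs and Benjamini-Hochberg adjustment over them. Neighbours differed in 6 of the 10 pairs. KPNA7 exceeded KPNA2 in 24 of 24 oocytes by 3.45 (SD 0.63) on this log2 scale (two-sided permutation p = 1e-05, the smallest these permutations can give, adjusted p = 2.5e-05). The step from KPNA2 to XPO1 was 1.67 and that from XPO1 to KPNA6 was 1.53, again in 24 of 24 oocytes with the same p. KPNA6 exceeded KPNB1 in 20 of 24 oocytes by 0.55 (permutation p = 0.00046, adjusted p = 0.00092). KPNB1 and KPNA1 did not differ beyond their spread (difference 0.23, SD 0.83, 14 of 24 oocytes, permutation p = 0.188, adjusted p = 0.269).

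KPNA1 exceeded the higher RAN row in 22 of 24 oocytes. That RAN row, KPNA3 and KPNA4 could not be ordered (adjusted permutation p = 0.663 for both steps), and the lower RAN row and RCC1 could not either (adjusted permutation p = 0.663). KPNA4 and the lower RAN row differed by 0.45, with KPNA4 higher in 13 of 24 oocytes (permutation p = 0.0189, adjusted p = 0.0315). They had only 32 and 13 UMIs over the 24 oocytes. In non-injected oocytes alone they did not differ (permutation p = 0.177, adjusted p = 0.295), and in injected oocytes alone they were not neighbours.

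Among the importin alphas, KPNA7 made up most of the captured RNA. All 7 importin alpha symbols, the members and KPNA5, had a row. KPNA7 was 86.7, 91.1 and 94.4% of their summed RPM in the lowest, median and highest non-injected oocyte and 73.8, 90.7 and 93.5% in the injected oocytes. The means were 91.3% ± 1.92 and 88.0% ± 6.15 (SD, n = 12 each). The medians were thus close together, and the lower mean of the injected group came with 4 oocytes below the lowest non-injected one: injected 8 at 73.8%, 3 at 79.1%, 11 at 83.7% and 6 at 86.2%. Without injected oocytes 3 and 8 the injected mean was 90.3% ± 3.03 (SD, n = 10).

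KPNA2 supplied most of the remainder, 7.45% ± 1.87 of the importin alpha RPM in non-injected and 10.1% ± 5.58 in injected oocytes (SD, n = 12 each). Injected oocytes 3 and 8 had the highest KPNA2 shares, and without them the injected mean was 7.99% ± 2.77 (SD, n = 10). KPNA6 supplied 0.67% ± 0.27 and 1.06% ± 0.42, or 0.93% ± 0.31 in injected oocytes without 3 and 8. KPNA1, KPNA3, KPNA4 and KPNA5 each stayed under 1% in every oocyte. Within an oocyte KPNA7 stood 7.24 to 21.8 times above KPNA2 in the non-injected group (median 12.5) and 3.22 to 17.3 times in the injected group (median 11.5). Without injected oocytes 3 and 8 the injected range was 5.88 to 17.3 (median 12.8).

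**Figure D2:**
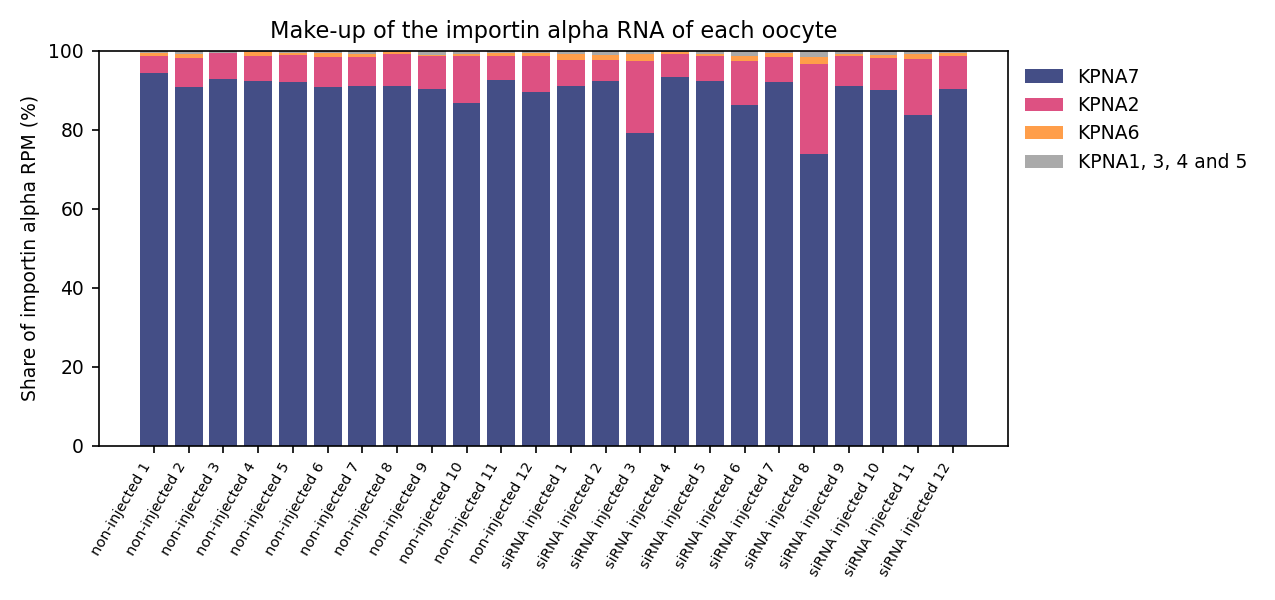
Make-up of the importin alpha RNA of each oocyte. Bars are single oocytes and give the share (%) of the summed importin alpha RPM from KPNA7, KPNA2, KPNA6 and the other 4 genes. KPNA7 takes 86.7 to 94.4% in non-injected oocytes and as little as 73.8% in injected oocyte 8.

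The importin alphas together reached 4185, 4804 and 5754 RPM in the lowest, median and highest non-injected oocyte and 3031, 4267 and 4831 RPM in the injected oocytes. In 11 of 12 injected oocytes the sum lay below the non-injected median, although the groups overlapped. Without KPNA7 the other 6 importin alphas summed to 419 ± 81.9 RPM in non-injected and 461 ± 166 RPM in injected oocytes (SD, n = 12 each). Injected oocytes 3 and 8 were behind the higher second mean: without them it was 396 ± 72.1 RPM (SD, n = 10). These sums and shares are descriptions of the members and carry no test.

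KPNA7 also stood far above the receptor it works with. The ratio of KPNA7 to KPNB1 was 113, 197 and 454 in the lowest, median and highest non-injected oocyte. In injected oocytes the ratio was 57.2, 131 and 1049, or 73.8, 152 and 1049 without 3 and 8. Few UMIs of KPNB1 lay behind each of these ratios. Against 13 genes of the importin beta family summed, the ratio of KPNA7 was 9.87 to 19.3 (median 13.3) and 4.21 to 18.3 (median 12.0). In injected oocytes without 3 and 8 it was 7.07 to 18.3 (median 12.8). The ratio of KPNA7 to CSE1L, the exportin that recycles importin alphas, was 18.8 to 63.4 (median 24.0) and 9.13 to 69.8 (median 26.3), so these ranges overlapped widely. Without injected oocytes 3 and 8 the injected range was 16.5 to 69.8 (median 27.7).

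Whether the injection was accompanied by a change of these genes was asked with limma over the 7256 genes whose mean was 10 RPM or higher, on log2(RPM + 5), with Benjamini-Hochberg adjustment over all of them. Calls required both a fold change over 1.2 and an adjusted p under 0.05. Of the 11 rows of the members 6 entered the test (KPNA7, KPNA2, XPO1, KPNA6, KPNB1 and KPNA1), and 0 were called, where 0.221% of all tested genes were. At an unadjusted p under 0.05 there was 1 member, KPNA7, beside 12.4% of all tested genes. DESeq2 on the recovered UMIs called 0 members too, with 1.6% of all genes called. It gave no adjusted p for KPNA1, KPNA6 and KPNB1, so only KPNA7, KPNA2 and XPO1 could have been called. With edgeR 0 of all tested genes were called, so its count says nothing about the members. The estimates of 3 members were positive and of 3 negative, with a median log2 fold change of -0.02, against 0.02 over all tested genes.

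KPNA7 had 3813, 4308 and 5433 RPM in the lowest, median and highest non-injected oocyte. In injected oocytes it had 2270, 3888 and 4395 RPM. The groups overlapped, with 5 injected oocytes below every non-injected one and 6 non-injected oocytes above every injected one. The means were 4425 ± 504 and 3605 ± 709 RPM (SD, n = 12 each), 18.5% lower after injection, a log2 fold change of -0.32 (SE 0.11, 95% interval -0.54 to -0.09). This did not pass the test over all genes (limma, unadjusted p = 0.0064, adjusted p = 0.202).

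Injected oocytes 8, 11 and 3 had the lowest KPNA7 levels, 2270, 2538 and 2917 RPM. Without oocytes 3 and 8 the injected mean was 3807 ± 564 RPM (SD, n = 10) and the log2 fold change -0.23 (limma, adjusted p = 0.297). The coefficient of variation of KPNA7 was 11.4% in non-injected and 19.7% in injected oocytes, or 14.8% in injected oocytes without 3 and 8. Counting error of its UMIs alone would give 2.72% and 2.97%.

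**Figure D3:**
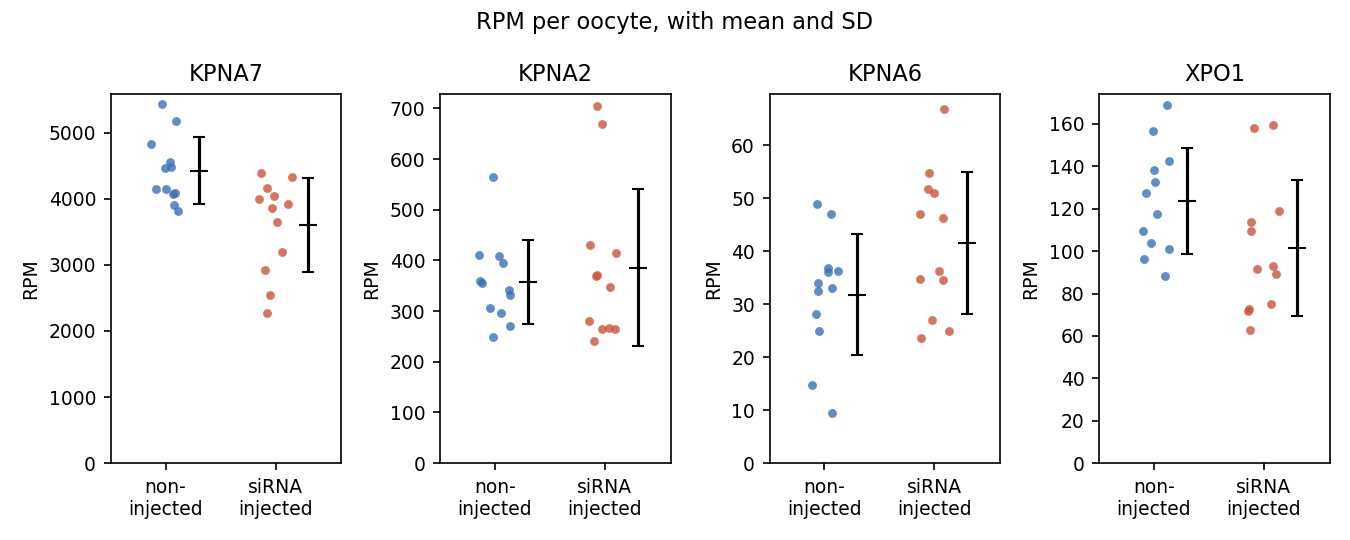
KPNA7, KPNA2, KPNA6 and XPO1 in single oocytes (RPM, each axis from 0). Points are oocytes and the bars beside them are the mean and SD of 12 oocytes. The 2 groups overlap for each gene, and injected oocytes 3 and 8 are the highest for KPNA2, at 669 and 706 RPM.

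KPNA2 was at 249, 349 and 564 RPM in the lowest, median and highest non-injected oocyte and at 241, 359 and 706 RPM in the injected oocytes. Only injected oocytes 3 and 8 exceeded every non-injected one. The log2 fold change was 0.05 (SE 0.16, 95% interval -0.26 to 0.36, limma adjusted p = 0.930), and its sign rested on those 2 oocytes, since without them it was -0.13 (adjusted p = 0.712). The coefficient of variation was 23.2% in non-injected and 40.2% in injected oocytes, where counting gives 9.98% and 9.59%. The wider spread of the injected group rested on the same 2 oocytes, since without them it was 21.5%.

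XPO1 was at 88.3, 122 and 169 RPM in the lowest, median and highest non-injected oocyte. In injected oocytes it was at 62.7, 92.1 and 159 RPM, with 10 of 12 below the non-injected median and 4 below every non-injected oocyte. The log2 fold change was -0.31 (SE 0.15, 95% interval -0.62 to 0.00) and did not pass (limma, unadjusted p = 0.0528, adjusted p = 0.410). Injected oocytes 3 and 8 again had the highest level of their group, 158 and 159 RPM, and without them the log2 fold change was -0.44 (unadjusted p = 0.0041, adjusted p = 0.134).

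KPNA6 was at 9.40, 33.5 and 48.8 RPM in the lowest, median and highest non-injected oocyte. In injected oocytes it was at 23.6, 41.3 and 66.8 RPM, and 4 of them lay above every non-injected oocyte. The log2 fold change of 0.36 (SE 0.21, 95% interval -0.07 to 0.80) did not pass (limma, unadjusted p = 0.0965, adjusted p = 0.500). At this depth counting alone gives a coefficient of variation of 34.8% and 29.7%, and 36.0% and 32.3% were measured.

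KPNB1 was at 9.87, 22.7 and 36.8 RPM in the lowest, median and highest non-injected oocyte and at 3.86, 27.9 and 54.1 RPM in the injected oocytes. Its log2 fold change was 0.10 (SE 0.26, 95% interval -0.43 to 0.63, limma adjusted p = 0.915). This estimate moved with single oocytes, to 0.002 without injected oocyte 5, the highest, and 0.25 without injected oocyte 12, the lowest, and it was 0.006 without injected oocytes 3 and 8. KPNA1 was at 10.05, 18.5 and 47.0 RPM and at 3.86, 23.7 and 30.7 RPM, with a log2 fold change of -0.08 (SE 0.25, 95% interval -0.59 to 0.43, adjusted p = 0.930). Both intervals span 0 widely, and a difference was not detectable at this depth. The sign of KPNA1 turned when non-injected oocyte 9, the highest, or injected oocyte 12, the lowest, was left out (0.02 and 0.04).

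The 5 rows below the filter on low values were tested only in a fit of the whole table without it. That fit called 0 of its 16442 genes, and 8.1% of them had an unadjusted p under 0.05. Its lack of calls therefore says nothing about these rows. There the limma adjusted p was 0.9999 for KPNA3, 0.804 for KPNA4 and both RAN rows, and 0.947 for RCC1. The importin alpha KPNA5 (ENSBTAG00000026673), which is not among the members, had 5 UMIs over 4 non-injected oocytes and 16 UMIs over 11 injected oocytes. Its mean was 1.57 ± 2.59 and 4.70 ± 2.11 RPM (SD, n = 12 each). In the unfiltered fit, where 0 of all genes passed, it did not pass either (limma, unadjusted p = 0.0035, adjusted p = 0.311).

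The levels of the 3 most abundant members were also compared with each other across oocytes. Spearman's rho between KPNA7 and KPNA2 was -0.09 over the 12 non-injected and -0.64 over the 12 injected oocytes, and between KPNA7 and XPO1 it was -0.24 and -0.68. KPNA2 and XPO1 ran in the same direction, with 0.43 and 0.69. Without injected oocytes 3 and 8 the rho of the remaining 10 injected oocytes was -0.38 for KPNA7 and KPNA2, -0.45 for KPNA7 and XPO1 and 0.45 for KPNA2 and XPO1. These values are descriptions: the 2 genes of a pair share the library, its depth and the total to which RPM is scaled. KPNA7 itself had a rho with the number of UMIs of -0.17 in non-injected and 0.03 in injected oocytes, while KPNA2 had 0.65 and 0.00.

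**Figure D4:**
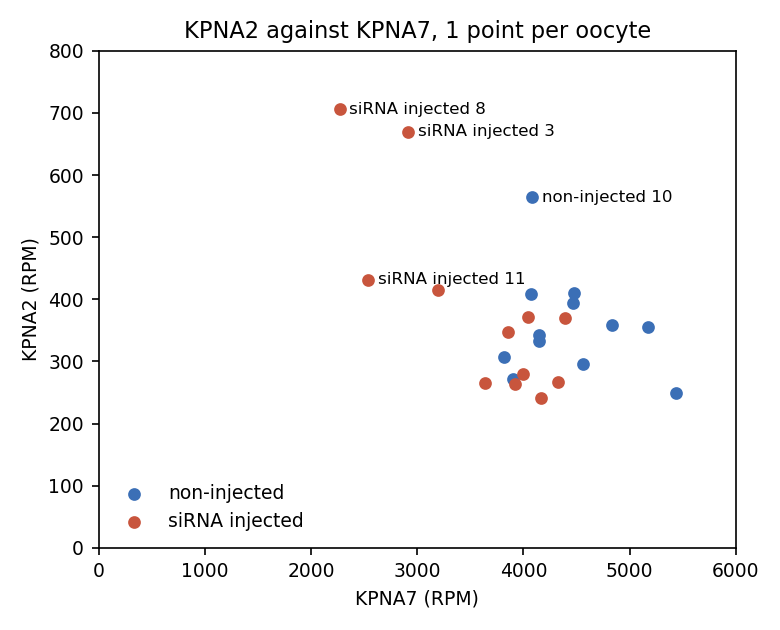
KPNA2 against KPNA7 (both in RPM), with 1 point per oocyte. Injected oocytes 8, 3 and 11 and non-injected oocyte 10 are named, and injected oocytes 8 and 3 combine 2270 and 2917 RPM of KPNA7 with 706 and 669 RPM of KPNA2.

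The genes whose pattern was most like that of KPNA7, among 6188 tested genes with a symbol, were MLLT11 (Spearman's rho 0.81), CASC4 (0.81) and CCNA2 (0.79) over the 24 oocytes. MLLT11 had a mean of 554 ± 88.2 RPM in non-injected and 437 ± 84.2 RPM in injected oocytes, and CCNA2, the gene of cyclin A2, 744 ± 147 and 561 ± 99.8 RPM (SD, n = 12 each). After the group means were subtracted the 3 highest were RBBP7 (0.82), PARP1 (0.80) and MLLT11 (0.78), with a median over all genes of -0.09. Without injected oocytes 3 and 8 (n = 22) MLLT11 and CASC4 were still the 2 highest as measured, at 0.76 and 0.75, and CCNA2 was in place 5 (0.74). After subtraction the 3 highest were then other genes, PRKAR1A, SKIV2L2 and GNPTAB (0.72 each). RBBP7 was in place 4 (0.70), PARP1 in place 6 (0.69) and MLLT11 in place 23 (0.65). The rho with TPX2, a spindle factor that importin alphas bind, was 0.61 as measured and 0.73 after subtraction. Without these 2 oocytes it was 0.49 (place 112) and 0.65 (place 21). TPX2 is 1 of 9 listed spindle factors and was chosen after its values were seen. The rho of the others on that list is not given, so whether KPNA7 varied with such factors was not tested. Some other genes had negative values over the 24 oocytes, as measured and after subtraction: CSE1L -0.19 and -0.54, KPNB1 -0.44 and -0.38, and KPNA6 -0.49 and -0.40. KPNA2 was at -0.31 and -0.60, XPO1 at -0.11 and -0.63, and KPNA1 at -0.05 and -0.05. NUTF2, also of the pathway, was positive, at 0.44 and 0.26. Without injected oocytes 3 and 8 CSE1L was at -0.06 and -0.46, KPNB1 at -0.35 and -0.33, and KPNA6 at -0.38 and -0.33. XPO1 was then at 0.10 and -0.42, KPNA2 at -0.10 and -0.39, and the median over all genes at -0.02 and -0.05. KPNA7 stood 4.27 to 5.93 times above TPX2 in non-injected oocytes (median 4.82) and 3.16 to 5.01 times in injected ones (median 4.04, and 3.66 to 5.01 without oocytes 3 and 8).

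The other genes of the pathway were described from lists of the importin beta family, exportins, the RAN cycle, nucleoporins and spindle factors that importins bind. Over all tested genes 0.221% were called and 12.4% had an unadjusted p under 0.05. With such shares, 0 called genes in a short list says little about that list. In the importin beta family 8 of 13 genes were tested and 0 were called or had an unadjusted p under 0.05, with 2 estimates positive, 6 negative and a median log2 fold change of -0.11. SNUPN, an adaptor for capped small nuclear RNAs that stood on the same list, had a log2 fold change of 0.21 (limma adjusted p = 0.642). The smallest p values within the family were those of IPO13 (-0.30, adjusted p = 0.714) and IPO9, a carrier of histones (0.23, adjusted p = 0.730). In the exportins, all 7 tested, XPO1 included, 0 were called and 6 estimates were negative, with a median of -0.19. The log2 fold change was -0.39 for XPOT, the exportin of transfer RNA (adjusted p = 0.493), and 0.45 for XPO7 (adjusted p = 0.544).

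Among the RAN cycle genes, 7 of 10 rows were tested and 1 was called, beside 0.221% of all tested genes. The called gene was RANBP2, the pore protein that binds RAN at the cytoplasmic face and acts as a SUMO ligase. Its row has no symbol and was named from the study's own list of genes that differed between these same oocytes. The row thus entered the list through a call in these data, so its call here is no independent result. RANBP2 (ENSBTAG00000000152) was at 89.1, 113 and 170 RPM in the lowest, median and highest non-injected oocyte and at 30.9, 67.4 and 118 RPM in the injected oocytes. In 9 injected oocytes it was below every non-injected one, and its log2 fold change was -0.79 (limma, adjusted p = 0.0415). DESeq2 on the recovered UMIs called it too (adjusted p = 0.0027), and its log2 fold change lay between -0.86 and -0.67 in every alternative run. In limma the call was close to the threshold and was lost when any 1 of 7 oocytes was left out (non-injected 8, 10 or 11, or injected 6, 9, 10 or 12), with an adjusted p of 0.0159 to 0.0734 over the 24 such fits, and in the fit without a filter (adjusted p = 0.0562). edgeR did not call it (adjusted p = 0.0551), but edgeR and the fit without a filter called 0 of all genes. NUTF2, which carries RAN into the nucleus, was at 395 ± 61.6 and 353 ± 64.3 RPM (SD, n = 12 each, log2 fold change -0.17, adjusted p = 0.586). NXT1, its relative in messenger RNA export, was at 101 ± 35.6 and 118 ± 48.4 RPM (0.20, adjusted p = 0.724).

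Of the nucleoporins on the list 26 of 29 were found and 25 tested, 0 were called, and 2 were higher and 6 lower at an unadjusted p under 0.05 (12.4% of all tested genes, in either direction, had such a p), with a median log2 fold change of -0.05. NUP155, of the inner ring, was at 400 ± 71.7 RPM in non-injected and 309 ± 88.0 RPM in injected oocytes (log2 fold change -0.40, limma adjusted p = 0.202). NUP93, of the same ring, had the opposite sign, at 183 ± 41.7 and 231 ± 29.0 RPM (0.35, adjusted p = 0.202). NUP58, of the central channel, was at 199.98 ± 57.0 and 150 ± 39.9 RPM (-0.40, adjusted p = 0.253).

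Of the spindle factors that importins bind, 8 of 9 were tested and 0 were called, beside 0.221% of all tested genes. There were 4 estimates in each direction, with a median of 0.01. DLGAP5, a microtubule-binding protein, was at 1031 ± 164 and 833 ± 146 RPM (log2 fold change -0.31, limma adjusted p = 0.202). HMMR, which works with TPX2, was at 57.1 ± 25.1 and 77.4 ± 22.2 RPM (0.47, adjusted p = 0.307), with all 12 injected oocytes above the non-injected median. For KIF2A, a depolymerase of microtubules, the log2 fold change was 0.26 (adjusted p = 0.554). TPX2 was at 907 ± 134 and 865 ± 126 RPM (-0.07, adjusted p = 0.836).

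**Figure D5:**
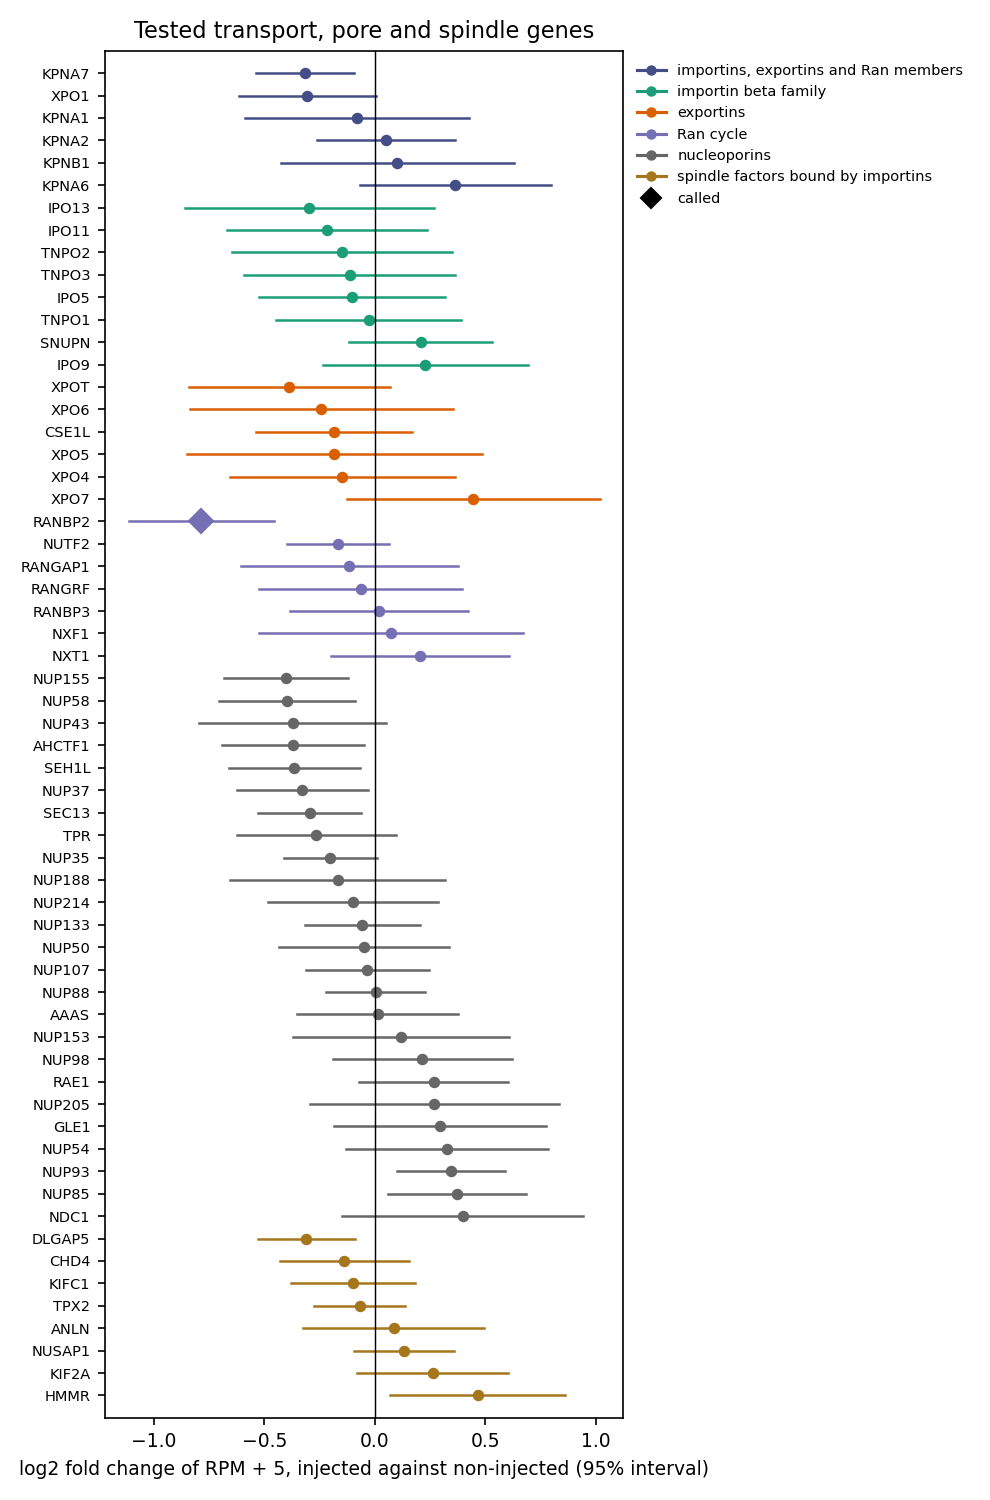
Log2 fold change of RPM + 5 (injected against non-injected, with its 95% interval, limma) for the tested members and the tested genes of the 5 lists, coloured by list. RANBP2, at -0.79, is the 1 gene marked as called, and it was named from the study's own list of differing genes. SNUPN has the colour of the importin beta family, though the text sets it apart. The intervals of KPNA7 and several nucleoporins exclude 0 without passing the adjusted threshold.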

How the data were processed

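Single-oocyte CEL-seq2 libraries of 12 siRNA injected and 12 non-injected oocytes were used. The authors mapped reads to a cDNA library (genome build UMD3.1 per the labels), counted identical UMIs of a gene once and deposited RPM values. The deposited RPM had been corrected for repeated draws of the same UMI (4048 possible), inferred from the values: once undone, 100% of values were whole UMIs within 0.001. For KPNA7, with 568 to 1557 UMIs per oocyte, the correction raised RPM by 4.92 to 19.1%. All 24 columns of the table were used. Groups came from the sample titles and genotype labels. The treatment text in the labels is the same for all oocytes and was not used.

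RPM was tested with limma 3.58.1 (trend) on log2(RPM + 5) for genes whose mean reached 10 RPM, because RPM is not a count. Calls required both a fold change over 1.2 and an adjusted p under 0.05. edgeR 4.0.16 and DESeq2 1.42.0 were run on the recovered UMIs as alternatives, and R 4.3.3, Python 3.11.15 and scipy 1.17.1 were used. The fits were tested on simulated data. The members and gene lists were chosen with earlier results of these data known. Beside the members, the text names from each list every gene called and up to 3 with the smallest p, and the 3 genes most like KPNA7 in each of 2 ways. KPNA5, TPX2 and CSE1L, also set beside the members, were chosen after their values were seen. RANBP2 has no symbol in the table and was named from the study's supplementary table of differentially expressed genes, which rests on these same oocytes. List symbols not matched were RANBP1, NUP62, NUP210, POM121, ZP3, DAZL, TNFAIP6, INHA, HSD3B1 and COL3A1. SNUPN, listed with the importin beta family, was set apart from it. Replicate numbers in the titles are shared by the groups but did not pair the oocytes. Alternatives were other pseudocounts, filters and scalings, a depth covariate, a replicate block, uncorrected UMIs and leaving out oocytes.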

Additional observations from a re-analysis of the deposited data

How the results depend on the processing

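The difference of KPNA7 was negative under each of 13 other settings (log2 fold change -0.33 to -0.23, adjusted p = 0.156 to 0.386, limma unless named) and without each of the 24 oocytes in turn (-0.35 to -0.26, adjusted p = 0.160 to 0.291), and it was called in none of them. No member was called under any alternative run, though some runs, such as edgeR, called 0 of all genes. The adjusted p of DESeq2 was missing for KPNA1, KPNA6 and KPNB1. The number of members at an unadjusted p under 0.05 went from 1 to 2, with XPO1 added, without a filter on low values, with TMM scaling, with edgeR and DESeq2 on UMIs and on corrected molecules, and without injected oocytes 3 and 8. It ranged from 1 to 2 when 1 oocyte was left out. The fits on corrected molecules, on uncorrected UMIs and without oocytes 3 and 8 were chosen after seeing the data. The direction turned for KPNA1 (-0.14 to 0.04 when 1 oocyte was left out, 0.039 without injected oocyte 12 and 0.022 without non-injected oocyte 9) and for KPNA2 (-0.04 to 0.11, negative without injected oocyte 3 at -0.03 or 8 at -0.036, and -0.13 without both); the cause was not tested. KPNA6, KPNB1 and XPO1 kept their sign in every alternative that gave them a value.

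Over all genes, 16 were called by limma, 9 with a pseudocount of 1 RPM, 6 with TMM, 31 with a depth covariate, 52 above 30 RPM, 36 without oocytes 3 and 8, 0 without a filter (1332 at an unadjusted p under 0.05), 0 by edgeR on UMIs (841) and on corrected molecules (838), and 116 and 113 by DESeq2, and 0 to 37 without 1 oocyte. The number of neighbouring levels that differed was 6 of 10 in all oocytes, 5 in non-injected and 6 in injected oocytes alone. These were not all the same pairs: KPNA4 and the lower RAN row differed in all oocytes. In injected oocytes alone it was KPNA3 and that RAN row (adjusted permutation p = 0.0463). Samples with the same number did not deviate together (12 pairs, r from -0.12 to 0.17, 1 best matched to its own number); with the number as a replicate block, KPNA7 stayed at -0.32 (adjusted p = 0.265), no member was called and 11 genes were called instead of 16. The differences in the summed importin alpha RPM and in the share of KPNA7 were described without a test, and no paired test was run on them. Depth limits KPNA3, KPNA4, RAN and RCC1, which had 0 UMIs in some oocytes.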
